A study of Homo sapiens with 16 samples.

Results

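The 57 genes described here encode the ligands and receptors that steer growing axons. They were chosen by symbol: 69 of the 63187 genes in the table of estimated counts are named as a semaphorin of classes 3 to 7, a plexin, an Eph receptor, an ephrin, a Slit, a Robo receptor, a netrin or netrin-G, an UNC5 receptor or DCC, and 57 of the 69 had at least 10 counts in 4 or more of 16 libraries. The libraries came from SK-N-BE(2), an established neuroblastoma line of human origin that carries an amplified MYCN, grown at 21% oxygen with 10% fetal bovine serum. The 4 groups were wild-type cells (WT) and cells transfected with full-length HIF-2α (FL) or with forms that the series design writes ΔN-CTAD and Δc-IDR and the sample labels write NCTAD and cIDR, read here as deletions of those regions. HIF-2α is a hypoxia-inducible transcription factor, and EPAS1 is its gene. Each group had 4 libraries, 1 in each of 4 batches, and the study asked how the forms of HIF-2α change the transcriptome. The labels give neither what distinguishes the batches nor the vector, the deleted residues, the time after transfection, whether cells were pools or clones, or whether WT cells received an empty vector. An effect of transfection and an effect of HIF-2α therefore cannot be told apart in any comparison with WT. Nothing in the labels says that replicates were separate cultures beyond their batch, so p-values measure only the spread between these libraries.

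Axon guidance cues attract or repel the tip of a growing axon and also guide migrating neural crest cells, from which sympathetic neurons and neuroblastoma arise. Semaphorins signal through plexins, and most secreted class 3 semaphorins also need a neuropilin as co-receptor. Ephrins, which are anchored in the membrane, bind Eph receptor tyrosine kinases on neighbouring cells, Slits bind Robo receptors, and netrins bind DCC and the UNC5 receptors, while the membrane-anchored netrin-Gs bind LRRC4-family proteins instead.

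Library totals ranged from 38.6 to 56.1 M (mega) estimated counts, and EPAS1 stood at 13.0 to 28.1 counts per 1 M (CPM) in WT libraries against 1318 to 5850 CPM in transfected ones. Genes defining the adrenergic state of neuroblastoma were present, with 11 of 11 at a median of at least 1 transcript per 1 M (TPM) and a summed level of 5891 to 6284 TPM in batch 2 and 6337 to 7189 TPM in the other batches, without overlap. Sums for 8 genes of the mesenchymal state were 115 to 144 TPM, most of it TWIST1. Among markers of other cell types, 6 fibroblast genes summed to 67.7 to 72.5 TPM in batch 2 and 25.1 to 39.3 TPM in the other batches, with 2 of the 6 at a median of 1 TPM or more (LUM and DCN) and COL1A2 at a median of 0. Sums in batch 2 against the other batches were 6.94 to 8.96 against 4.36 to 8.12 TPM for 5 Schwann cell genes (SOX10 at a median of 0), 0.286 to 0.606 against 0.0244 to 0.275 TPM for 5 endothelial genes (TEK and KDR at a median of 0), 1.34 to 1.90 against 0.911 to 1.49 TPM for 4 leukocyte genes (PTPRC, CD3E and LYZ at a median of 0) and 2.12 to 3.30 against 0.871 to 1.48 TPM for 4 epithelial genes (CDH1 at a median of 0). The part of these markers in the batch 2 differences below was not tested. In such bulk RNA, fewer cells expressing a gene and less of its RNA per cell cannot be told apart.

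Levels spanned more than 3 orders of magnitude. Of the 57 genes, 15 had a mean of at least 10 TPM, 27 lay between 1 and 10 TPM and 15 below 1 TPM, with a median of 3.21 TPM against 6.87 TPM over the 19763 genes tested. SLIT3, a secreted repellent ligand of Robo receptors, had the highest level, with a mean of 187 TPM (126 to 226 over the libraries), while SLIT1 and SLIT2 stood at 0.246 and 0.157 TPM. Among their receptors, ROBO1 had 22.7, ROBO2 10.2 and ROBO3 2.40 TPM, and ROBO4 had at most 4 counts in any library. The UNC5 receptors were the next most abundant group: UNC5B had 117, UNC5C 40.6 and UNC5A 21.5 TPM. Their partner receptor DCC and the fourth family member UNC5D had at most 1 count in any library, and the netrin NTN1 had 0 counts in all 16, which allows up to 0.0778 CPM in the smallest library (3 counts, counting error only).

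Of the other secreted netrins, NTN3 was present at 2.77 TPM, NTN4 had at most 3 counts and NTN5 at most 5. The netrin-Gs NTNG1 and NTNG2 had 1.52 and 1.03 TPM. All 9 plexins passed the count minimum, led by PLXNB2 (41.2 TPM), PLXND1 (41.1 TPM) and PLXNA1 (37.5 TPM). Semaphorins were lower: SEMA6A, a transmembrane semaphorin that binds A-type plexins, led with 19.7 TPM, and 19 of 20 passed, all but SEMA6B (at most 20 counts). The ephrins EFNB2 (30.2 TPM), EFNB1 (25.1 TPM) and EFNA5 (11.02 TPM) stood above every Eph receptor, of which EPHA6 (6.54 TPM), EPHB2 (5.91 TPM) and EPHA8 (5.54 TPM) were the highest. EPHB6, a kinase-dead Eph receptor known as a prognostic marker in neuroblastoma, had at most 1 count in any library. EPHA1, EPHA3 and EPHA4 had at most 1, 5 and 5 counts, and EPHA7 at most 19. Of the 57 genes that passed, 53 had 10 counts in all 16 libraries, and SEMA5A, EFNA2, SLIT2 and EPHA5 had them in 13 to 15.

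Within batches, SEMA5B was the 1 guidance gene called by edgeR between a HIF-2α construct and WT, and DESeq2, or edgeR without the count minimum, called SEMA4B, NTNG2 and PLXNA2 as well. The group comparisons used edgeR's quasi-likelihood test with the batch in the model and Benjamini-Hochberg adjustment over all 19763 tested genes, called at an adjusted p under 0.05. NCTAD against WT called 1 of the 57, SEMA5B (0.445% of all tested genes were called), and 13 had an unadjusted p under 0.05 (5.93% of all tested genes did). DESeq2 called 4 in the same comparison, SEMA5B (adjusted p 0.000421), NTNG2 (0.000834), SEMA4B (0.00275) and PLXNA2 (0.00787). By edgeR, FL against WT called 0 of the 57 (0.101% of all tested genes), with 8 at an unadjusted p under 0.05 (5.08%). DESeq2 called 1, SEMA4B. For cIDR against WT edgeR called 0 as well (0.481%), with 4 at an unadjusted p under 0.05 (5.38%), and DESeq2 called 1, NTNG2. The shares of all tested genes are edgeR's. Shares called by DESeq2 are not given here, so its counts have no background beside them. Construct and WT differed in the same direction in all 4 batches in 11 of the 57 genes for FL (8 higher, 3 lower), 20 for NCTAD (15 higher, 5 lower) and 9 for cIDR (7 higher, 2 lower), against 9.25%, 15.3% and 17.4% of all tested genes. All 3 comparisons share the WT libraries.

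Between constructs edgeR and DESeq2 both called 0 of the 57. The numbers at an unadjusted p under 0.05 by edgeR were 3 when NCTAD was set against FL (0% of all tested genes were called and 3.67% had such a p), 3 for cIDR and FL (0.0304% and 3.7%) and 5 for cIDR and NCTAD (0.00506% and 2.18%). A single test of any difference among the 4 groups called 0 by edgeR, with 7 at an unadjusted p under 0.05 (0.42% and 4.18% of all tested genes by edgeR). Its smallest adjusted p was 0.0626, for SEMA5B. DESeq2 called 4 in that test, SEMA5B, SEMA4B, NTNG2 and PLXNA2. Median log2 fold changes of the 57 against WT were 0.06 for FL, 0.07 for NCTAD and 0.04 for cIDR, beside 0.01, 0.02 and 0.01 over all tested genes.

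SEMA5B (ENSG00000082684.16, chr3:122909082-123028605 in RefSeq on GRCh38.p14) encodes a transmembrane class 5 semaphorin with thrombospondin repeats, known as a repellent cue. In batches 1 to 4 it measured 4.59, 15.5, 3.79 and 3.47 CPM in WT and 5.83, 21.0, 5.70 and 6.16 CPM in NCTAD. NCTAD was above WT in every batch, by log2 differences of 0.34, 0.44, 0.58 and 0.82, although the values of the groups overlapped across batches. The log2 fold change was 0.55 ± 0.10 (SE; 1.46-fold; edgeR adjusted p 0.0154; n = 4 a group). FL measured 5.37, 18.8, 5.05 and 4.12 CPM and cIDR 5.31, 14.8, 4.56 and 3.91 CPM. Their log2 fold changes against WT were 0.29 ± 0.10 (adjusted p 0.767) and 0.14 ± 0.10 (adjusted p 0.999). The cIDR difference was 0.08 without cIDR replicate 1 and 0.20 without cIDR replicate 2. NCTAD exceeded FL and cIDR in all 4 batches, by 0.26 ± 0.09 (adjusted p 0.998) and 0.41 ± 0.10 (adjusted p 0.708) on the log2 scale, neither called, and the difference from FL was 0.16 without NCTAD replicate 4. The call of SEMA5B against WT ended when any 1 of WT replicate 1, 3 or 4 or NCTAD replicate 2, 3 or 4 was left out (adjusted p 0.0519 to 0.0803, with log2 fold changes of 0.46 to 0.57), without the batch in the model (0.50, adjusted p 1.00), and without the whole of batch 2, 3 or 4 (adjusted p 0.264, 0.199 and 0.191). It also ended with limma on log2(TPM + 1), where the difference was 0.23 (adjusted p 0.815).

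The 300 bases around the start of SEMA5B are shown because it was the 1 guidance gene that edgeR called between groups among genes passing the count minimum. The window runs from 250 bases before to 50 after a RefSeq start (GRCh38.p14, chr3:123028556-123028855, minus strand, 1 of 3 windows listed for the gene). Capitals in the windows printed here mark ACGTG or GCGTG, the core letters of hypoxia response elements, on either strand, where CACGT and CACGC are their reverse complements, and the E-box CACGTG contains ACGTG. None of the 3 SEMA5B windows holds either motif. Such letters are a description and not a site, and their absence from a window says nothing about a factor. The genes printed here and below were picked after their values had been seen.
SEMA5B: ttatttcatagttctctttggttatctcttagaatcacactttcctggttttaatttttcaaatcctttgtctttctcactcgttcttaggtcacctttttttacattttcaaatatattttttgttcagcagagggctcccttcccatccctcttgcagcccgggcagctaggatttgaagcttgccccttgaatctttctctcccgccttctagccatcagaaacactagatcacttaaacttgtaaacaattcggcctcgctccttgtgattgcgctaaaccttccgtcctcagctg

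SEMA4B and NTNG2 were the members in which all 3 constructs lay above WT in 4 of 4 batches (1.3% of all tested genes did so), although edgeR over all 16 libraries with the count minimum called none of these differences. SEMA4B, a transmembrane class 4 semaphorin, measured 10.2, 20.7, 12.5 and 10.6 CPM in WT and 15.7, 31.7, 13.1 and 13.3 CPM in FL. It measured 15.9, 28.6, 14.5 and 14.3 CPM in NCTAD and 13.5, 32.1, 12.7 and 13.2 CPM in cIDR. The log2 fold changes against WT were 0.41 ± 0.09 for FL, 0.43 ± 0.09 for NCTAD and 0.35 ± 0.09 for cIDR (edgeR adjusted p 0.164, 0.0539 and 0.190). DESeq2 called SEMA4B in FL (adjusted p 0.0178) and NCTAD (adjusted p 0.00275), and edgeR without the count minimum called it in NCTAD (adjusted p 0.0115). With only the NCTAD and WT libraries, edgeR called it in NCTAD as well (adjusted p 0.0362). Without WT replicate 3, edgeR called it in FL, NCTAD and cIDR (log2 differences 0.51, 0.53 and 0.45; highest adjusted p 0.0455), and without FL replicate 1 or 4 or cIDR replicate 2 in NCTAD (adjusted p 0.0388, 0.0481 and 0.0473). Within batch 3 the 3 differences were the smallest, 0.07, 0.21 and 0.03.

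NTNG2, a netrin-G anchored in the membrane of neurons, measured 0.355, 3.48, 0.531 and 0.373 CPM in WT, 1.24, 6.61, 0.667 and 0.678 CPM in FL, 2.00, 4.28, 1.61 and 0.969 CPM in NCTAD, and 1.19, 7.12, 0.871 and 0.881 CPM in cIDR. WT was the lowest library of its batch each time, but the WT library of batch 2 exceeded every transfected library of the other batches. The log2 fold changes against WT were 0.95 ± 0.29 for FL, 1.40 ± 0.30 for NCTAD and 1.13 ± 0.29 for cIDR (edgeR adjusted p 0.671, 0.0563 and 0.200). DESeq2 called NTNG2 in NCTAD (adjusted p 0.000834) and cIDR (adjusted p 0.0373), as did edgeR without the count minimum (adjusted p 0.00276 and 0.0295). With only the libraries of the compared groups, edgeR called NTNG2 in cIDR (adjusted p 0.0434) but not in NCTAD. Without NCTAD replicate 2 the NCTAD difference of NTNG2 by edgeR was 1.79 (adjusted p 0.00158) and the cIDR difference 1.15 (adjusted p 0.0251), and without the whole of batch 2 the NCTAD difference was 1.80 (adjusted p 0.0268). SEMA3C, a secreted class 3 semaphorin, was the 1 member below WT in all 4 batches with every construct (0.466% of all tested genes), by log2 fold changes of −0.33 ± 0.12, −0.13 ± 0.12 and −0.20 ± 0.12 for FL, NCTAD and cIDR, none of them called. Its difference in FL was −0.91 in batch 1 and −0.16 to −0.20 in the other batches, and −0.17 without FL replicate 1, and that in cIDR was −0.30 without cIDR replicate 1.

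The remaining differences between groups with the smallest p were modest or rested on few counts. PLXNA2, a plexin that binds class 6 semaphorins and acts with neuropilins for class 3, was higher than WT in NCTAD by 0.36 ± 0.08 on the log2 scale, in 4 of 4 batches (adjusted p 0.101), with values of 50.8, 24.3, 87.8 and 82.0 CPM against 36.1, 18.1, 76.0 and 64.2 CPM. DESeq2, the fit without a low-count filter and the fit of only the 8 libraries of those groups called this PLXNA2 difference, as did edgeR without FL replicate 1 (adjusted p 0.0374) or cIDR replicate 1 (adjusted p 0.0271). SEMA3A, the secreted repellent that acts through neuropilin-1 and A-type plexins, had log2 fold changes of −0.23 ± 0.09, −0.23 ± 0.09 and −0.30 ± 0.09 for FL, NCTAD and cIDR (adjusted p 0.924, 0.631 and 0.289). The FL difference of SEMA3A ran from −0.57 to 0.01 over the batches and was −0.14 without FL replicate 1. The cIDR difference of SEMA3A was called with only the libraries of those groups (adjusted p 0.0361) and without FL replicate 1 (adjusted p 0.0201). In cIDR the SEMA3A difference was nearly the same in each batch, −0.30, −0.33, −0.29 and −0.29. SEMA6A (0.17, 0.19 and 0.08 for FL, NCTAD and cIDR) and ROBO2 (0.09, 0.19 and 0.14) had small positive log2 fold changes with SEs of 0.06, none of them called. Leaving out 1 library moved the ROBO2 difference in FL to 0.05 (FL replicate 2) or 0.14 (FL replicate 1) and that in cIDR to 0.08 (cIDR replicate 1), and the SEMA6A difference in cIDR to 0.04 (cIDR replicate 2). SEMA5A, a class 5 semaphorin at 0.113 to 1.74 CPM, was highest in the FL library of each of batches 2, 3 and 4. Its log2 fold change was 1.39 ± 0.36 in FL against WT (adjusted p 0.337) and −1.59 ± 0.36 in cIDR against FL (adjusted p 0.348), neither called.

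On average, a list of hypoxia genes lay above WT in the transfected libraries. Of 30 such genes (CA9, VEGFA, NDRG1 and others), 1, 7 and 15 were called higher than WT in FL, NCTAD and cIDR and 0 lower, beside 0.101%, 0.445% and 0.481% of all tested genes called in either direction. The mean log2 CPM of the list lay above the same-batch WT library in every transfected library, by 0.13 to 0.33 in FL, 0.30 to 0.49 in NCTAD and 0.48 to 0.67 in cIDR. Estimated differences from WT were highest in cIDR for the hypoxia list and in NCTAD for SEMA5B, SEMA4B and NTNG2. For SEMA4B, NCTAD and FL were close (0.43 and 0.41), and within batch 2 NTNG2 was higher in FL and cIDR than in NCTAD. EFNA3 had its highest difference in cIDR (0.38, against −0.02 in FL and −0.05 in NCTAD), not called. These genes were picked after their values were seen. No test of the relation between the list and the guidance genes was made.

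More of these genes differed between batch 2 and the other batches than between any groups. Of the 57 genes, 46 (80.7%) differed between batch 2 and the mean of batches 1, 3 and 4 by edgeR, 34 higher and 12 lower, against 53.5% of all tested genes (27.5% higher and 26% lower). Differences of at least 2-fold were called in 15 higher and 3 lower genes (7.52% and 1.2% of all tested genes). The median log2 difference was 0.48 in the 57 and 0.04 over all tested genes. The 4 libraries of batch 2 lay outside the range of the other 12 in 31 genes, 25 above and 6 below, which is 54.4% against a background of 28.8% (14.2% above and 14.6% below). The test sets batch 2 against the spread of libraries within batches. Since batch 2 is 1 batch, the p-values do not cover the spread between batches. Batches 1, 3 and 4, each set against the mean of the others including batch 2, called 18, 22 and 22 of the 57 (24.4%, 15.6% and 13.3% of all tested genes), and batches 3 and 4 did not differ from each other in any of them (0 by edgeR, with 1 at an unadjusted p under 0.05, and 0 among all genes, 0%).

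Batch held most of the variance of these genes over the 16 libraries: a median of 75.8% of the variance of log2 CPM lay between batches, 5.94% between groups and 16.3% in the remainder. Over all 19763 tested genes the medians were 53.5%, 7.90% and 33.8%. The batch part was over 50% in 46 of the 57 genes (80.7%, against 53.8% of all tested genes), and the group part in 0 (against 1.05%). The share between groups was highest in SEMA5A (44.7%), EFNB1 (20.6%) and PLXNB1 (20.3%). EPHA8, an ephrin-A receptor, had 97.5% of its variance between batches.

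**Figure D1:**
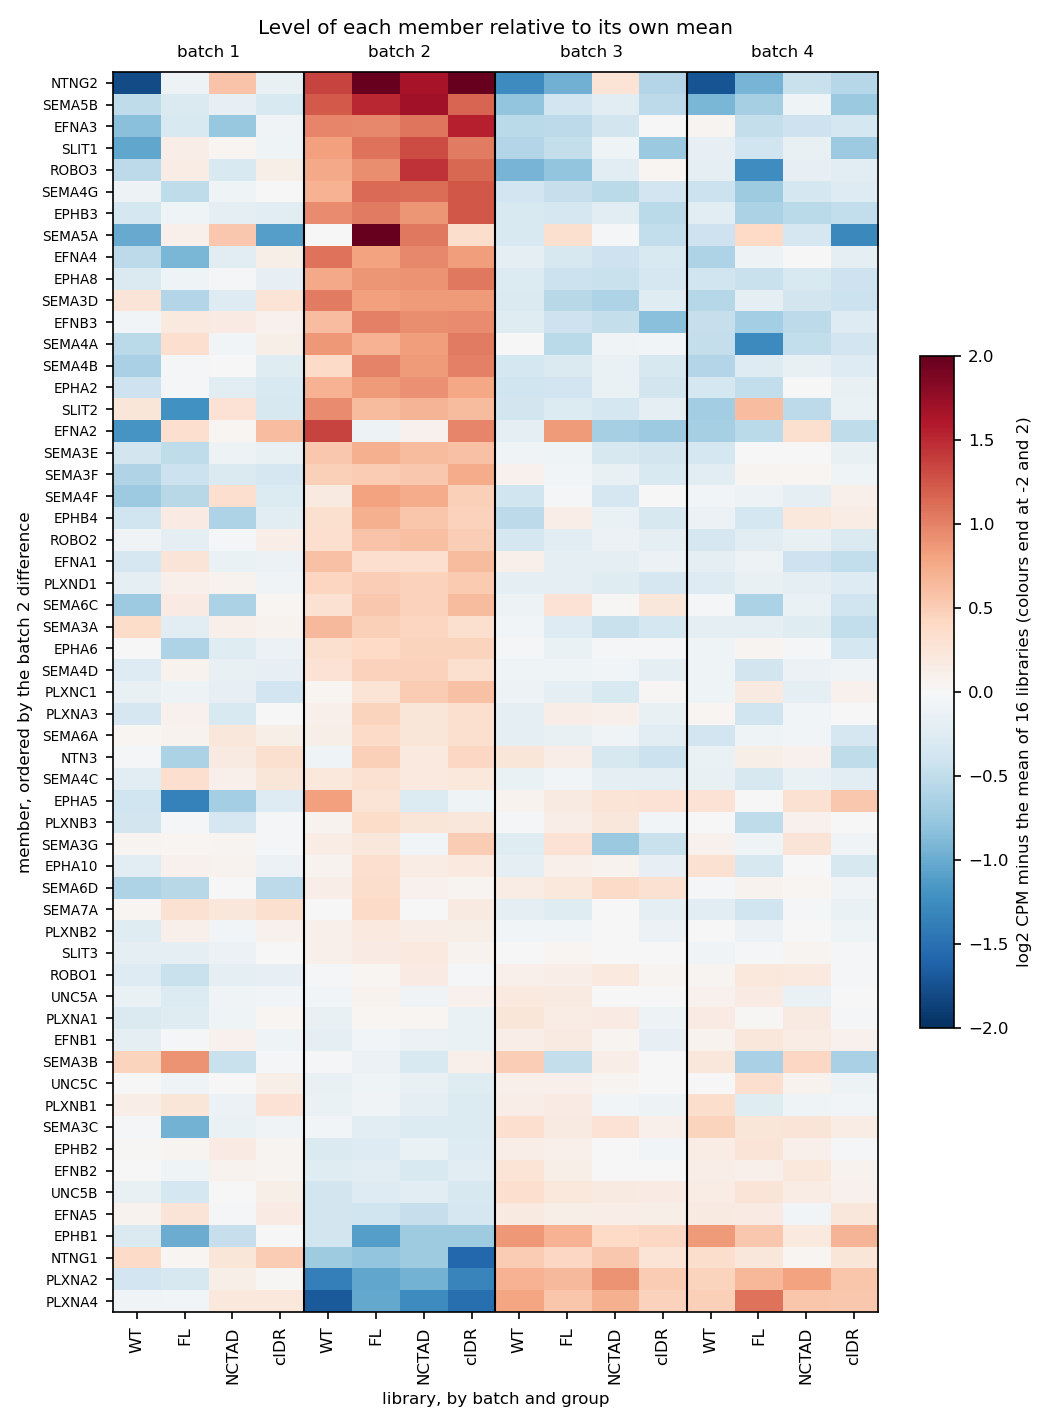
Log2 CPM of each gene minus its mean over the 16 libraries, with libraries ordered by batch and group and genes by their batch 2 difference. The 4 columns of batch 2 are red for the genes at the top, from NTNG2 on, and blue for the last rows, down to PLXNA2 and PLXNA4.

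Among ligands, semaphorins were mostly higher in batch 2: 14 of 19 were called higher, 1 lower and 4 not called, beside 27.5% of all tested genes called higher and 26% lower. SEMA5B measured 14.8 to 21.0 CPM in the 4 libraries of batch 2 and 3.47, 4.82 and 6.16 CPM as the lowest, median and highest of the other 12, with no overlap (log2 difference 1.87 ± 0.07, adjusted p 3.34e-11). SEMA4G, at 9.0 to 13.2 CPM, stood above the 3.39 to 5.61 CPM of the other batches (1.41 ± 0.09, adjusted p 1.28e-08). In the annotation 22.3% of the exon bases of SEMA4G overlap MRPL43 on the opposite strand, which had 1886 to 3060 counts. SEMA3D, a secreted class 3 semaphorin, had 5.89 to 6.82 CPM against 2.13 to 3.98 CPM (1.19 ± 0.12, adjusted p 1.32e-06), and SEMA4B 20.7 to 32.1 against 10.2 to 15.9 CPM (1.08 ± 0.07, adjusted p 9.48e-09). SEMA3A rose by 0.63 ± 0.07, but here batch 2 (21.3 to 26.7 CPM) overlapped the rest, whose highest library had 21.9 CPM. SEMA5A was called higher too (1.36 ± 0.26, adjusted p 0.000472), with 0.335, 1.74, 0.746 and 0.440 CPM in WT, FL, NCTAD and cIDR of batch 2 and up to 0.511 CPM elsewhere, so that its libraries overlapped. The 1 semaphorin called lower was SEMA3C, by −0.29 ± 0.10 (adjusted p 0.0270), but that call ended without WT, NCTAD or cIDR replicate 2 (adjusted p 0.0737, 0.114 and 0.0885) and without batch 3 or 4 (adjusted p 0.160 and 0.225). Against batch 1 alone the SEMA3C difference was 0.08 (adjusted p 0.698).

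The netrin-Gs moved in opposite directions. NTNG2 had the largest rise of the 57: batch 2 libraries measured 3.48 to 7.12 CPM, and the other 12 had 0.355, 0.876 and 2.00 CPM as lowest, median and highest (2.64 ± 0.20, 6.23-fold, adjusted p 6.53e-08). NTNG1 fell: batch 2 had 1.69, 1.60, 1.69 and 0.914 CPM in WT, FL, NCTAD and cIDR, and no other library had under 2.86 CPM (−1.25 ± 0.15, adjusted p 6.29e-06). Of the proteins they bind, the NTNG2 partner LRRC4 was lower in batch 2 by −0.44 ± 0.11 (adjusted p 0.00245) and the NTNG1 partner LRRC4C was higher by 0.93 ± 0.23 (adjusted p 0.00329). NTN3 did not pass the test (0.32 ± 0.18, adjusted p 0.140), but was called without batch 1 (0.37, adjusted p 0.0466).

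All 3 Slits were called higher, as were 27.5% of all tested genes. SLIT1 measured 1.86 to 2.62 CPM in batch 2 against 0.480 to 1.14 CPM (1.45 ± 0.16, adjusted p 3.53e-06), SLIT2 differed by 0.96 ± 0.28 (adjusted p 0.00979) at under 1 CPM, and the abundant SLIT3 differed by only 0.17 ± 0.04 (adjusted p 0.00245; 516 to 564 against 430 to 511 CPM). The SLIT2 call ended without WT replicate 2 (adjusted p 0.0543), without batch 3 (adjusted p 0.0514) and with limma on log2(TPM + 1) or log2(TPM + 0.1) (adjusted p 0.263 and 0.228). Of the Slit receptors, ROBO3, known for its part in the crossing of the midline by commissural axons, had 3.24 to 5.22 CPM against 0.777 to 2.09 CPM (1.43 ± 0.17, adjusted p 6.68e-06). ROBO2 rose by 0.67 ± 0.05 without overlap (44.0 to 53.1 against 27.5 to 38.2 CPM, adjusted p 5.75e-08). ROBO1, at 74.8 to 85.9 CPM in batch 2 and 56.3 to 88.7 CPM elsewhere, was among the 4 genes nearest to no difference (0.04 ± 0.05, adjusted p 0.498). ROBO1 was called higher against batch 1 alone (0.30, adjusted p 0.0127) and lower against batch 3 alone (−0.08) and without batch 1 (−0.07, adjusted p 0.0342).

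Ephrins divided by member. EFNA3 and EFNA1, ephrin-A ligands described as induced by hypoxia, were both higher: EFNA3 had 3.11, 3.09, 3.31 and 4.68 CPM in WT, FL, NCTAD and cIDR of batch 2 and 0.856, 1.18 and 1.62 CPM as lowest, median and highest elsewhere (1.54 ± 0.14, adjusted p 3.24e-07). EFNA1 had 3.07 to 3.80 CPM against 1.72 to 2.91 CPM (0.64 ± 0.12, adjusted p 0.000393). EFNA4 (1.30 ± 0.19, adjusted p 4.63e-05) and EFNB3 (1.18 ± 0.11, adjusted p 5.19e-07) rose without overlap as well. In the annotation 44.7% of the exon bases of EFNA3 and 15% of those of EFNA4 are shared with the gene ENSG00000251246 on the same strand, which the count table names EFNA4-EFNA3 and GENCODE names AL691442.1. It is listed at 0 counts in all libraries, so how the counting divided such reads is uncertain. The most abundant ephrins fell: EFNA5 had 17.2 to 18.7 CPM in batch 2 and 22.8 to 28.3 CPM elsewhere (−0.52 ± 0.05, adjusted p 7.10e-07), and EFNB2 75.6 to 80.8 against 88.5 to 113 CPM (−0.33 ± 0.05, adjusted p 7.63e-05). EFNB1 was lower by −0.17 ± 0.05 (adjusted p 0.0126) with overlap, and this call ended without NCTAD replicate 2 (adjusted p 0.0591) or batch 4 (adjusted p 0.116) and against batch 1 alone (adjusted p 0.382). About 26.2% of the exon bases of EFNB2 overlap the gene AL138689.2 on the opposite strand, which had 1 to 12 counts.

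Eph receptors likewise rose and fell. EPHB3 had 16.2 to 20.8 CPM in batch 2 against 5.64 to 8.28 CPM (1.37 ± 0.08, adjusted p 7.18e-09), EPHA8 11.9 to 14.6 against 5.12 to 6.88 CPM (1.21 ± 0.07, adjusted p 2.10e-09), and EPHA2 7.40 to 8.59 against 3.25 to 4.54 CPM (1.08 ± 0.08, adjusted p 6.54e-08). EPHA6, the highest of the EPHA receptors, rose by 0.54 ± 0.09 (adjusted p 0.000106). EPHB1 fell by −0.99 ± 0.16 (adjusted p 0.000120), but batch 1 was low too: its mean was 1.24 CPM, against 0.995 CPM in batch 2, 2.52 CPM in batch 3 and 2.48 CPM in batch 4. Against batch 1 alone the EPHB1 call ended (−0.30, adjusted p 0.307). EPHB2 had 15.01 to 16.9 CPM in batch 2, below the 17.8 to 22.1 CPM of the others (−0.31 ± 0.06, adjusted p 0.000226), a call that limma on log2(TPM + 1) or log2(TPM + 0.1) did not make (−0.16 and −0.19, adjusted p 0.279 and 0.273). EPHA5 and EPHA10 did not pass the test (0.30 ± 0.22 and 0.24 ± 0.13). Batch 1 was the low one for EPHA5, with a mean of 0.391 CPM against 0.745, 0.722 and 0.772 CPM in batches 2, 3 and 4, and without batch 1 its difference was −0.024. EPHA10 was called without WT replicate 4 (0.30, adjusted p 0.0288).

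The largest falls were in A-type plexins, the signalling receptors of class 3 and class 6 semaphorins. PLXNA4 (chr7:132123340-132648688) had 7.74, 12.3, 10.4 and 8.79 CPM in WT, FL, NCTAD and cIDR of batch 2, and 23.7, 35.4 and 53.2 CPM as lowest, median and highest of the other 12, with no overlap (−1.83 ± 0.12, a 3.55-fold lower level, adjusted p 1.84e-08). PLXNA2 (chr1:208022242-208244384) had 18.1, 22.9, 24.3 and 18.7 CPM in batch 2 and 36.1, 68.0 and 87.8 CPM elsewhere (−1.56 ± 0.08, 2.95-fold lower, adjusted p 5.28e-10). Batch 1 lay between in both: its mean was 26.4 CPM for PLXNA4, against 38.9 and 40.1 CPM in batches 3 and 4, and 43.1 CPM for PLXNA2, against 76.1 and 72.4 CPM. Within batch 2, PLXNA2 was higher in NCTAD than in WT, as in the other batches. PLXNA1 was not called (−0.07 ± 0.07, adjusted p 0.420), although it was called lower against batch 3 alone (−0.16, adjusted p 0.0228) and without batch 1 (−0.14, adjusted p 0.0279), and PLXNA3 was higher (0.36 ± 0.09, adjusted p 0.00370). PLXND1, the receptor of SEMA3E, rose by 0.64 ± 0.04 without overlap (84.9 to 91.1 against 50.1 to 67.9 CPM, adjusted p 2.63e-08), as did SEMA3E itself (0.82 ± 0.09, adjusted p 1.48e-06). PLXNB2 was higher by 0.18 ± 0.05 (adjusted p 0.00869) and PLXNB1, a receptor of SEMA4D, lower by −0.22 ± 0.09 (adjusted p 0.0442), both with overlap. The PLXNB2 call ended against batch 1 alone (adjusted p 0.0726) and with limma on both TPM scales (adjusted p 0.0688 and 0.0705). The PLXNB1 call ended when any 1 of WT replicate 2, FL replicate 1, 2 or 3, NCTAD replicate 3 or 4 or cIDR replicate 1, 2 or 4 was left out (adjusted p 0.0522 to 0.156), and without batch 1 or 3 (adjusted p 0.112 and 0.0730).

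The netrin receptors differed by at most 0.38 on the log2 scale. UNC5B had 425 to 474 CPM in batch 2 and 430 to 688 CPM elsewhere (−0.38 ± 0.07, adjusted p 0.000253), and UNC5C 184 to 204 against 203 to 275 CPM (−0.21 ± 0.06, adjusted p 0.00809). Against batch 1 alone neither was called (−0.19, adjusted p 0.0952, for UNC5B and −0.17, adjusted p 0.0849, for UNC5C), and UNC5C was not called with limma on either TPM scale. UNC5A was nearest to no difference of the 57, with 53.7 to 59.9 CPM in batch 2 and 46.7 to 64.4 CPM elsewhere (0.01 ± 0.06, adjusted p 0.872).

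**Figure D2:**
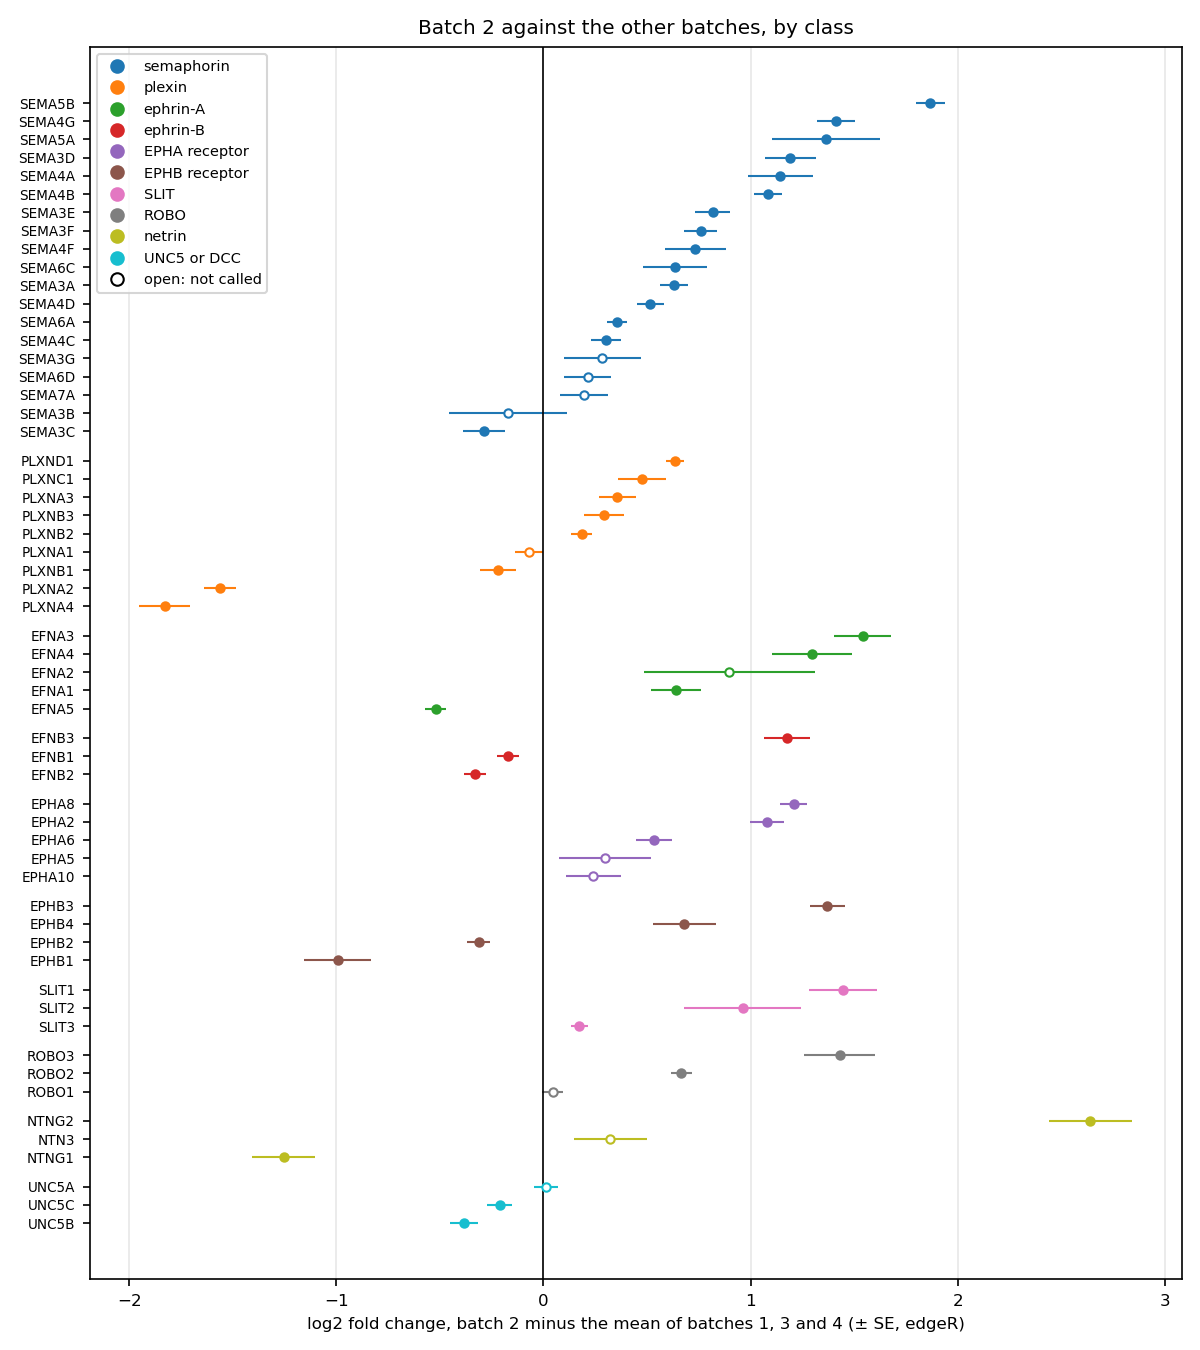
Log2 fold change of each gene in batch 2 against the mean of batches 1, 3 and 4, with its SE, grouped by class; open points were not called by edgeR. NTNG2 (2.64) and PLXNA4 (−1.83) mark the ends, and 34 of the 46 called genes lie to the right of 0.

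The start windows of 3 genes are shown because PLXNA4 and PLXNA2 had the largest falls of the 57 and EFNA3 the largest rise among ephrins. The EFNA3 window (chr1:155078587-155078886, plus strand) holds GCGTG 3 times over both strands. The PLXNA4 window (chr7:132576421-132576720, minus strand), which lies inside the span that RefSeq gives the gene, holds ACGTG 1 time and GCGTG 2 times, and the PLXNA2 window (chr1:208244335-208244634, minus strand) holds neither.
EFNA3: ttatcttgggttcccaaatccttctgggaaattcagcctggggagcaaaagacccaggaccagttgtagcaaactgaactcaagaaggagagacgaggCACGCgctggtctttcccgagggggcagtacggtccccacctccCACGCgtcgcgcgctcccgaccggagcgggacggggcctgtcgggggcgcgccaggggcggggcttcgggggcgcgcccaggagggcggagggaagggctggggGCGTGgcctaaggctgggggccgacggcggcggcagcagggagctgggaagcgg
PLXNA4: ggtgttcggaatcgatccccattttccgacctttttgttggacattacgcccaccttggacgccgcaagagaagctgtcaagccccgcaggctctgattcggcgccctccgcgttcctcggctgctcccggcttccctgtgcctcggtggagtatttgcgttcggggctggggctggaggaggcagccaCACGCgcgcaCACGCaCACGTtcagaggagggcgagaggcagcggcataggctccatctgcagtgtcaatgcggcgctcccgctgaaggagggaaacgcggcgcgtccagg
PLXNA2: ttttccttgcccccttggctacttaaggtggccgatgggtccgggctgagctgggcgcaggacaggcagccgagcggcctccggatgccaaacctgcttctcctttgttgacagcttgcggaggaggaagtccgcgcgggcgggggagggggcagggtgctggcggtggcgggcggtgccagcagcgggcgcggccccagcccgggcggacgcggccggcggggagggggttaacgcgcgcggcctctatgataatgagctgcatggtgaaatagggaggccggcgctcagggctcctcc
Windows were found for 50 of the 57 genes (80 windows), and NTNG2 was not among them. Either motif occurred in 53.8% of these windows and in 48.4% of all 35116 windows of the same length. Counted by gene, at least 1 window held either motif in 68% of the 50 genes and in 52.4% of all 27305 genes with windows, with averages of 1.6 and 1.29 windows a gene, a description without a test. It occurred in 45.7% of the 46 windows of genes called higher in batch 2 and in 50% of the 16 windows of genes called lower, or by gene in 63.3% of 30 and 63.6% of 11.

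Batch 1 also differed from batches 3 and 4 in some of these genes. Against batch 3, 13 of the 57 were called by edgeR (13.8% of all tested genes), and against batch 4, 11 (9.9%). The comparisons share batch 1. EPHB1 (−1.04 ± 0.19 against batch 3, −1.01 ± 0.19 against batch 4), EPHA5 (−0.92 ± 0.29 and −0.99 ± 0.29), PLXNA2 (−0.83 ± 0.08 and −0.75 ± 0.08) and PLXNA4 (−0.56 ± 0.13 and −0.59 ± 0.13) had the lowest log2 differences shown by both. ROBO1 (−0.38 ± 0.06 and −0.37 ± 0.06) and SEMA3C (−0.50 ± 0.12 and −0.54 ± 0.12) were lower in batch 1 in both as well. EFNB3 (0.58 ± 0.15 and 0.57 ± 0.15), SEMA3A (0.37 ± 0.09 in each) and SEMA6A (0.28 ± 0.06 and 0.33 ± 0.06) were higher. In EFNB3, SEMA3A and SEMA6A batch 2 was higher than batches 3 and 4 too, and in EPHB1, PLXNA2 and PLXNA4 it was lower. These genes were picked after their values were seen, and the cause of the batch differences was not tested.

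Hypoxia genes stood higher in batch 2, where 34 of the 57 guidance genes were called higher, 12 lower and 11 not called. Of the 30 in the list, 28 were called higher in batch 2 and 0 lower, with a median log2 difference of 1.12, beside 27.5% and 26% of all tested genes and their median of 0.04. Their mean log2 CPM was 5.37 to 5.99 in the 4 libraries of batch 2 and 4.06 to 4.73 in the other 12. NDRG1 (3.27 ± 0.23), DDIT4 (2.85 ± 0.04) and PDK1 (2.81 ± 0.08) had the largest log2 differences, and LDHA and SLC2A1 were not called. The labels give the same oxygen level for every library. The part of the hypoxia genes in the guidance gene differences was not tested.

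Other genes of the pathway were read from lists chosen with earlier results known. Of 18 tested co-receptors and further cues, 13 (72.2%) were called in batch 2, 8 higher and 5 lower, beside the background of 53.5%. NRP1, the co-receptor that binds SEMA3A together with A-type plexins, fell by −1.36 ± 0.05 (30.4 against 80.1 CPM on average, adjusted p 6.07e-11), and NRP2 by −0.46 ± 0.09 (adjusted p 0.000726). FLRT1, a membrane protein of the family that binds UNC5 receptors, had the largest rise of that list (2.85 ± 0.17, adjusted p 4.45e-09). Of 62 genes in a list of intracellular effectors that also holds the membrane proteins LRRC4, LRRC4B and LRRC4C, 35 (56.5%) were called, 20 higher and 15 lower, a share near the background. The RhoGEF gene TRIO (−0.48 ± 0.06) had the largest fall in that list and LRRC4B (2.04 ± 0.32) the largest rise, followed by the cofilin phosphatase gene SSH3 (1.46 ± 0.18). Between groups, 1 of the 18 co-receptors and cues was called, RGMA, a repulsive ligand of neogenin. It was higher in NCTAD than in WT by 1.32 ± 0.19 (adjusted p 0.00295), where 0.445% of all tested genes were called. Among the 62 effectors the 1 call was DPYSL4, a collapsin response mediator. It was higher in cIDR than in WT by 0.47 ± 0.08 (adjusted p 0.0168), where 0.481% of all tested genes were called.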

How the data were processed

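Gene expression was measured by poly(A)-selected, stranded RNA-seq in 16 libraries. Values are salmon estimated counts per gene, deposited by the authors without scaling to depth, and TPM, deposited by the authors from the same run. The submitters' processing notes name fastp, STAR, Salmon, featureCounts and GRCh38; versions and the annotation release are not given in the sources used here. Groups follow the sample labels; the table columns call FL "WT", WT "CTRL" and NCTAD "NTAD" and name the line BE2c.

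Estimated counts (15.5% not whole) were rounded. Genes with at least 10 counts in 4 or more libraries (19763) were tested with edgeR 4.0.16 (R 4.3.3; TMM; quasi-likelihood; group and batch in 1 model over the 16 libraries; Benjamini-Hochberg over all genes). CPM were scaled by TMM, log2 CPM had a prior count of 2, and the SE is the log2 fold change over the square root of F. The batch is in the model because the labels give each replicate number as a batch: over all tested genes, deviations from the group means had an average r of 0.304 for pairs within a batch (0.0657 to 0.706) and −0.0937 for other pairs. The biological coefficient of variation was 0.108. No replicates were copies (chi-square per degree of freedom at least 6.92). The procedure was run on simulated counts with differences planted only in genes with higher counts, so it did not cover differences in low-count genes. Alternatives used DESeq2 1.42.0 and limma 3.58.1 on log2 TPM. Totals of 38.6 to 56.1 M counts limit precision mainly for genes under 1 CPM.

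Genes given values were those called between groups, filled to 8 by the test among the 4 groups; the 12 largest rises and falls in batch 2; the 4 nearest 0 there; the highest of each class; and EFNA1, EFNA3, EPHB6, EFNB2 and EFNB3. Others were named after their values were seen. The genes and lists were chosen with earlier results of these data known. Positions and start windows are from RefSeq (GRCh38.p14) and exon overlaps from GENCODE 29. Figures were drawn with matplotlib 3.10.9.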

Additional observations from a re-analysis of the deposited data

Results flagged for a closer look

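In 5 sets of 4 values, 1 value stood far from the other 3 by Dixon's test, as about 1 in 20 sets would by chance. The sets were 24 of within-batch differences (1 such value), 36 of batch 2 libraries (3) and 4 of library totals (1). SEMA5B differed between NCTAD and FL by 0.57 on the log2 scale in batch 4, against 0.12 to 0.17 in the other batches. In batch 2, the cIDR library had the highest EFNA3 level (log2 CPM 2.24) and the lowest NTNG1 level (log2 CPM −0.064), and the WT library had the highest SEMA3D level (log2 CPM 2.78). The NCTAD library of batch 3 had the largest total of its group, 56.1 M counts, and the others had 46.4 to 47.8 M.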

How the results depend on the processing

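The count of guidance genes called in batch 2 (46) stayed between 38 and 48 under all other settings run and between 43 and 47 with single libraries left out. With limma on TPM, 38 were called (31 higher, 7 lower; 37 of the 46 kept). There the share of higher calls among all genes was 64.4% with log2(TPM + 1) and 63.8% with log2(TPM + 0.1), against 51.4% by edgeR, and the median difference of all genes was 0.10 with the second, against 0.04. Without the replicate block the 6 group comparisons and the test among the 4 groups called 0 genes, so that the 1 call for NCTAD against WT became 0.

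For NCTAD against WT (1 call), 4 genes were called without a low-count filter and by DESeq2, 3 with only the libraries of those groups, 0 with limma on either TPM scale and 0 without batch 3 or batch 4, which were added after seeing the data, and 0 to 3 with single libraries left out. For cIDR against WT (0), 1 gene was called without a filter, 1 by DESeq2, 2 with only those groups, and 0 to 1 with libraries left out. FL against WT (0) gave 1 by DESeq2 and 0 to 1 with libraries left out. The test among the 4 groups (0) gave 4 without a filter, 4 by DESeq2 and 0 to 1 with libraries left out. The 3 comparisons between constructs gave 0 throughout. The cause of these changes was not tested.

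Signs turned in batch 2 for 8 of the 57 genes, of which SEMA3C was called lower and UNC5A, ROBO1, PLXNA1, EPHA5, SEMA6D, SEMA3B and SEMA7A were not called. UNC5A (0.01) was −0.086 and −0.020 against batch 3 or 4 alone, −0.043 without batch 1, and −0.022 to 0.045 with libraries left out. ROBO1 (0.04) was −0.035 with log2(TPM + 1), −0.036 with log2(TPM + 0.1), −0.085 and −0.082 against batch 3 or 4 alone, and −0.074 without batch 1. PLXNA1 (−0.07) was 0.037 and 0.038 on the TPM scales and 0.097 against batch 1 alone, where SEMA3C (−0.29) was 0.078 and SEMA7A (0.20) −0.080. With single libraries left out, ROBO1 ran from 0.029 to 0.067 and PLXNA1 from −0.119 to −0.030, neither called. EPHA5 (0.30) was −0.014 and −0.098 against batch 3 or 4 alone and −0.024 without batch 1, SEMA6D (0.21) −0.106 against batch 3 alone, and SEMA3B (−0.17) 0.056 against batch 4 alone. EFNA2, EPHA10 and SEMA6D gained calls with single libraries left out, and NTN3 and SEMA7A without batch 1. SEMA6D was also called without batch 3 (0.36, edgeR adjusted p 0.0467). Limma called SEMA6D with log2(TPM + 1) (0.26, adjusted p 0.00718) and log2(TPM + 0.1) (0.55, adjusted p 0.0139). Calls of EPHB2, SEMA3C, PLXNB1, UNC5C, EFNB1, PLXNB2, PLXNB3 and SLIT2 were lost with limma on both TPM scales, that of SEMA5A with log2(TPM + 1) and that of SEMA4F with log2(TPM + 0.1). Against batch 1 alone the calls of SEMA3C, SEMA4C, SEMA6A, EFNB1, EPHB1, PLXNB2, UNC5B and UNC5C were lost. There ROBO1 (0.299) and SEMA6D (0.584, edgeR adjusted p 0.0331) were called higher. Of the values of the genes chosen by the naming rule, the other 1620 kept direction and side of the threshold, 50 lost the call and 29 gained one.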
